A study of Brassica napus with 8 samples.

Results

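Dry seed of rapeseed (Brassica napus) was compared with seed labelled 50 DPA, an earlier stage of the same organ. The comparison rests on 4 of the 8 RNA sequencing libraries of the study, chosen by their labels: 2 libraries of dry seed and 2 of 50 DPA seed. All libraries came from the cultivar Zhongshuang 11, with no transgene or treatment named in the labels. The labels describe farm-grown plants for organs of economic value and greenhouse plants for vegetative tissue, without saying which applies to each library. The remaining libraries, 2 of 48 h germinating seed and 2 of young leaf, entered the filter on low counts, the scaling and the shared estimate of the spread, and are otherwise given as levels where named.

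Rapeseed is an allotetraploid oil crop whose A and C subgenomes hold many near-identical gene pairs. During maturation a seed first fills with storage protein and oil and then dries. Transcripts that remain in the dry seed are known as stored mRNAs, and part of them serves early germination. The files do not pair gene IDs with names, and 0 of the 106059 IDs matched the gene table used here. The tissue labels could therefore not be checked against marker genes, no functional group could be counted, and genes are described by level, by change and by the chromosome prefix of their ID.

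Sequencing gave 35418139 and 27635445 counts for dry seed, and for 50 DPA seed 33861108 and 36535168. Levels are CPM, counts scaled to library size, with TMM factors, which set each library's scale by the genes between the extremes of change. On that scale 1 CPM stood for 31.3 and 23.9 counts in dry seed and for 23.5 and 25.2 counts in 50 DPA seed. Among genes at 1 CPM or more, levels of the libraries of a tissue differed by a log2 SD of 0.30 in dry seed and 0.23 in 50 DPA seed. Most counts above 0 were even, as happens if each mate of a pair adds a count, and counting error would then exceed what the counts imply. Separate plants or harvests are not named for the libraries within a tissue, so p-values reflect only how far these libraries differ, and that spread may be technical.

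Dry seed differed from 50 DPA seed in most genes tested, and with TMM factors, the only scale on which sizes were summarised, the falls were larger than the rises. Of 59062 genes tested, 15304 were higher in dry seed, 25.9% of the genes tested, and 19906 were lower, 33.7% (edgeR quasi-likelihood test, adjusted p under 0.05). Called either way were 59.6%. Of the lower genes, 10328 stood under 1 CPM in dry seed, and of the higher genes, 3697 stood under 1 CPM in 50 DPA seed. Such genes could pass the filter on low counts through the tissue where they were high. The change was at least 4-fold in 4586 of the higher genes and in 9129 of the lower genes. It was at least 64-fold in 213 higher and 956 lower genes. The median size of the change was 1.41 on the log2 scale among the higher genes and 1.83 among the lower ones. In these sizes, a tissue without any count was set at a floor of 6 counts per library, about 3 read pairs, which makes such changes lower bounds. No count was seen in either 50 DPA library for 1016 of the higher genes, and none in either dry seed library for 4420 of the lower ones. This floor was worth 0.221 CPM in dry seed libraries, against 0.247 CPM in 50 DPA seed libraries.

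**Figure D1:**
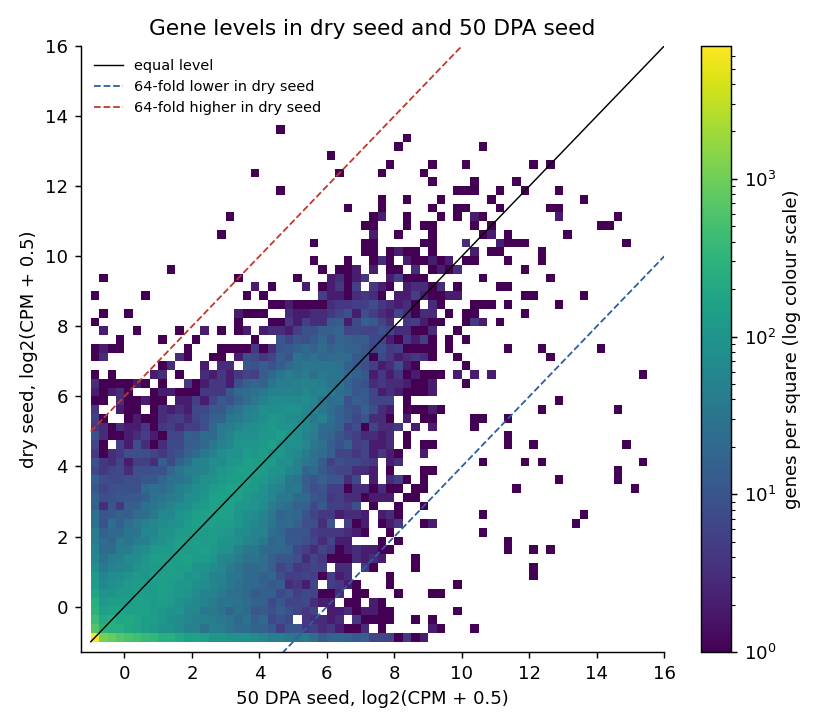
Level of each tested gene in dry seed (vertical axis) and 50 DPA seed (horizontal axis), both as log2(CPM + 0.5) of the mean of 2 libraries; colour gives the number of genes per square on a log scale. The bulk of genes lies around the line of equal level, and at the highest 50 DPA levels a group of genes lies below the line of a 64-fold fall.

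The direction of small changes depended on the scale. With total counts alone, 19077 genes were higher, or 32.3% of those tested, and 16502 lower, or 27.9%, for 60.2% either way. On that scale 53.6% of the changed genes were higher, against 43.5% with TMM factors. The total is itself shaped by the dominant genes, since the 161 genes among the 100 most abundant of either tissue took 25.2% ± 0.926 of dry seed counts and 47.2% ± 0.218 of 50 DPA seed counts (SD, n = 2). With totals taken without these 161 genes, 13592 genes were higher and 21739 lower, which is 23% and 36.8% of those tested, and 59.8% either way. Of these changed genes, 38.5% were higher. The median log2 change of all genes tested was -0.05 with TMM factors, 0.00 with total counts and -0.22 without the dominant genes. No gene called on the TMM scale was called in the opposite direction on either of the other scales.

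Counts were spread over many more genes in dry seed than in 50 DPA seed. The most abundant genes that together made up 50% of all counts numbered 1226 and 1123 in dry seed, against 181 and 189 in those of 50 DPA seed. The lower end did not differ in this way: 90% of counts were reached with 12640 and 12473 genes in dry seed and with 12413 and 12382 in 50 DPA seed. The genes called higher took 71.1% ± 0.351 of dry seed counts and 18.8% ± 0.168 of 50 DPA seed counts. The genes called lower took 15.6% ± 0.0859 of dry seed counts and 70.7% ± 0.246 of 50 DPA seed counts (SD, n = 2). These lists were called on the same libraries, so the shares describe them and do not test them. In germinating seed, which is not part of the contrast but entered the filter, the scaling and the estimate of the spread, genes higher in dry seed took 45.1% ± 0.228 of counts and genes lower in dry seed 32.2% ± 0.154. In young leaf the same lists took 26.7% ± 0.0438 and 49.5% ± 0.00378.

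**Figure D2:**
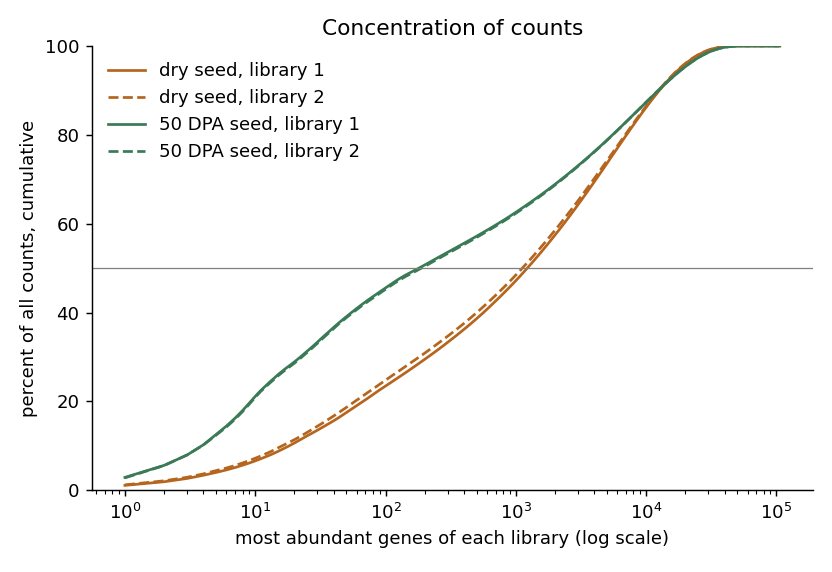
Cumulative percent of all counts (vertical axis) taken by the most abundant genes of each library (horizontal axis, log scale), with one line per library and a grey line at 50%. The dry seed lines cross 50% at 1226 and 1123 genes and the 50 DPA lines at 181 and 189, and the tissues come close again near 90% of counts.

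The share of counts that left the falling genes came from few genes and went to many. Summed over genes, 55.3 percentage points of the counts sat in different genes in dry seed than in 50 DPA seed. On the losing side, 21 genes accounted for 50% of these points, and the 100 largest losers for 71.0%. On the gaining side, 556 genes were needed for 50%, and the 100 largest gainers accounted for 32.0%. For 90% the numbers were 2011 losing and 6902 gaining genes. These are shares of counts, so a gene can gain share because others lost it.

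The change depended on the level at which a gene stood in 50 DPA seed, and genes at the top fell most. Of the 119 genes at 1000 CPM or more in 50 DPA seed, 93 were lower in dry seed, or 78.2%, and 15 higher, or 12.6%, with a median log2 change of -2.47. Over all genes tested the shares were 33.7% lower and 25.9% higher. Of the 1182 genes between 100 and 1000 CPM, 742 were lower, or 62.8%, and 326 higher, or 27.6%, with a median of -0.89, so that the share of higher genes was near that over all genes tested. On other scales the classes were set anew, so their members differed. With total counts alone the medians of the 2 classes were -2.95 over 86 genes and -0.75 over 710 genes. Without the dominant genes they were -2.42 over 138 genes and -0.84 over 1708 genes. Between 10 and 100 CPM the calls were nearly balanced, with 36.8% of 14828 genes higher and 43.6% lower. The median there was -0.12, against 0.20 for the 11413 genes that this class held with total counts alone. Between 1 and 10 CPM, 25.7% of 22615 genes were higher and 40.6% lower, with a median of -0.37. With total counts alone the median of this class was 0.03 over 23644 genes. Since the classes hold different genes, a change of sign in the same genes is not shown.

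Genes that started high also differed most among themselves. The middle 50% of genes ran from a log2 change of -5.77 to -0.64 at 1000 CPM or more and from -2.86 to 0.36 between 100 and 1000 CPM. It was narrower below, from -1.29 to 0.76 between 10 and 100 CPM and from -1.80 to 0.68 between 1 and 10 CPM. A 4-fold fall was seen in 58.8% of genes at 1000 CPM or more, 32.7% between 100 and 1000 CPM, 17.1% between 10 and 100 CPM and 22.9% between 1 and 10 CPM. A 4-fold rise was seen in 1.68%, 4.74%, 4.52% and 6.25% of the same classes. The median standard error of a log2 change was 0.10 in the 2 highest classes, 0.14 between 10 and 100 CPM and 0.30 between 1 and 10 CPM. Under 1 CPM it was 1.07, and 64.9% of 20318 genes were not called. A gene of this lowest class could pass the filter on low counts through another tissue alone, so its rises are not read as a result.

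A class set by the 50 DPA level picks genes that are high there, and this choice bears on the direction. With classes set in 1 library of 50 DPA seed and the change taken against the other library, the median of the class at 1000 CPM or more was -2.39 and -2.47, and that between 100 and 1000 CPM was -0.95 and -0.85, close to the values above. With classes set by the dry seed level instead, the direction turned. Of the 100 genes at 1000 CPM or more in dry seed, 67 were higher there and 22 lower, with a median of 1.58, against 25.9% higher and 33.7% lower over all genes tested. With classes set by the mean of both tissues, the median was -0.82 for the 125 genes at 1000 CPM or more and 0.66 for the 1350 genes between 100 and 1000 CPM. A fall of the most abundant genes was thus seen with the 50 DPA level and the mean level, and not with the dry seed level. The mean level includes the 50 DPA level, so it is not a separate check. Of its 125 genes at 1000 CPM or more, 68 were lower and 46 higher. A fall of genes between 100 and 1000 CPM was seen with the 50 DPA level alone.

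**Figure D3:**
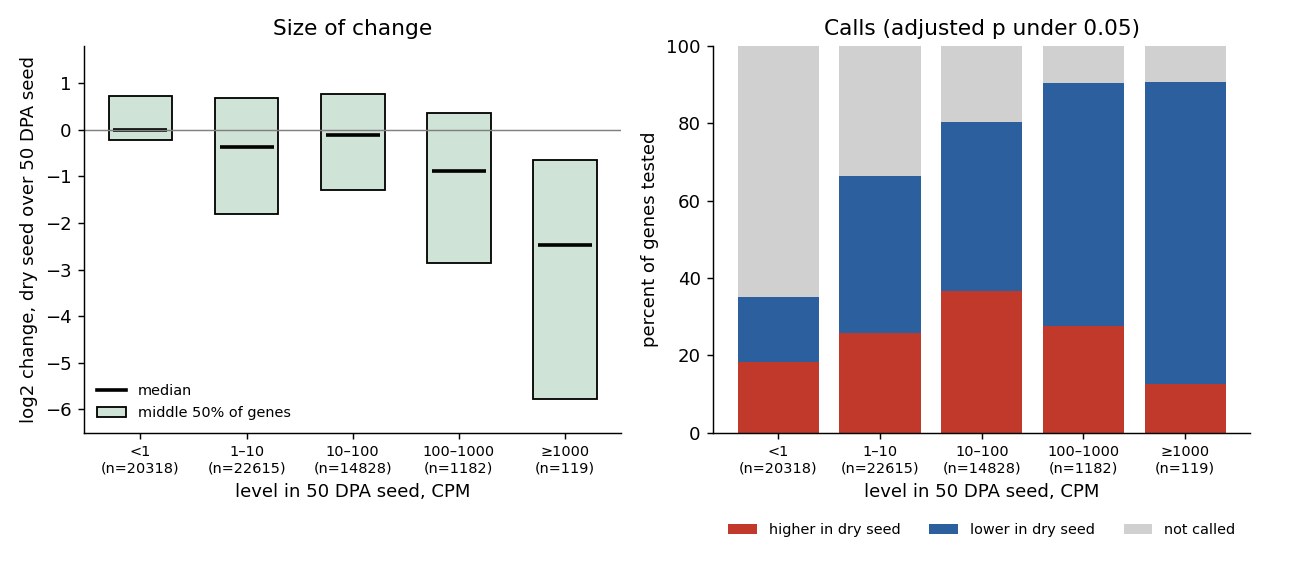
Left, log2 change of dry seed over 50 DPA seed (vertical axis) by class of 50 DPA level in CPM (horizontal axis), with the middle 50% of genes as a bar and the median as a line; genes without counts in a tissue are set at its floor. Right, percent of genes called higher, lower or not called in the same classes. The bar widens and drops in the 2 highest classes, where the medians are -0.89 and -2.47.

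Level classes kept part of their members. Of the 119 genes at 1000 CPM or more in 50 DPA seed, 48 were in that class in dry seed, 35 stood between 100 and 1000 CPM, 24 between 10 and 100 CPM, 11 between 1 and 10 CPM and 1 below 1 CPM. Of the 1182 genes between 100 and 1000 CPM, 44 moved up a class, 526 stayed, and 94 stood below 1 CPM in dry seed. Movement to the top came mostly from the class next to it: of the 100 genes at 1000 CPM or more in dry seed, 44 had stood between 100 and 1000 CPM, 6 between 10 and 100 CPM, 2 between 1 and 10 CPM and 0 below 1 CPM.

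The leading transcripts of 50 DPA seed held a far smaller share of the counts in dry seed. The 10 most abundant genes took 0.485% and 0.474% of counts in dry seed, against 21.1% and 20.9% in 50 DPA seed, a share 43.8-fold lower. All 10 were lower in dry seed (edgeR adjusted p under 0.05, background 33.7% lower), with a median log2 change of -9.73. Of the 10, 7 fell at least 64-fold and took 0.0193% of dry seed counts, against 15.5% of 50 DPA seed counts, while 1 fell 16- to 64-fold and 2 fell 4- to 16-fold. Their ranks by level in dry seed ran from 49 to 14711, with a median of 6440.5. The next genes, at ranks 11 to 100, took 8.83% and 9.17% of counts in dry seed and 24.4% and 24.3% in 50 DPA seed, and 73 of these 90 were lower and 9 higher. The 900 genes after these, up to rank 1000, took the larger share in dry seed, 24.2% and 24.9%, against 17.0% and 17.1% in 50 DPA seed, although 578 of the 900 genes were lower and 244 higher. Beyond rank 1000 the share was also larger in dry seed, at 41.8% ± 0.528 against 24.9% ± 0.164 for the 9000 genes up to rank 10000 (SD, n = 2). These lists were picked on the 50 DPA libraries, so their fall describes them and does not test a direction.

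The gene ZS11C01G025460 (C01 prefix) stood first in 50 DPA seed. It had 99.98 and 88.5 CPM in dry seed, against 41745 and 40087 CPM in 50 DPA seed. The log2 change was -8.76 ± 0.11 (SE, edgeR adjusted p = 4.78e-12), and the gene ranked 1924 in dry seed. ZS11A10G002330 (A10 prefix), second in 50 DPA seed, had 18.1 and 15.1 CPM in dry seed, against 39178 and 40550 CPM in 50 DPA seed. Its log2 change was -11.22 ± 0.14 (SE, edgeR adjusted p = 4.14e-12). The fitted falls of 434-fold and 2388-fold were far larger than the spread between libraries. Each gene was picked for its large difference on these same libraries, so the values describe it. Both had 0 counts in both young leaf libraries, and in germinating seed they stood at 2.83 and 0.575 CPM.

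The 100 most abundant genes of 50 DPA seed followed different courses, and no single fold described them. Of these genes, 30 fell at least 64-fold, 10 fell 16- to 64-fold, 22 fell 4- to 16-fold, 14 fell 2- to 4-fold, 22 stayed within 2-fold and 2 were at least 2-fold higher in dry seed. The 30 genes of the steepest fall took 0.0641% of counts in dry seed and 23.4% in 50 DPA seed. The 22 genes within 2-fold took 4.86% in dry seed and 3.80% in 50 DPA seed. The median 50 DPA level was 4939 CPM for the 30 genes and 1940 CPM for the 22, and the ranks of the 30 ran from 1 to 93, against 23 to 100 for the 22. In germinating seed the median was 0.742 CPM for the 30 genes and 2.93 CPM for the 22, and 1 CPM in both libraries was reached by 9 of the 30 and 21 of the 22. In young leaf it was reached by 4 of the 30 and 5 of the 22.

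**Figure D4:**
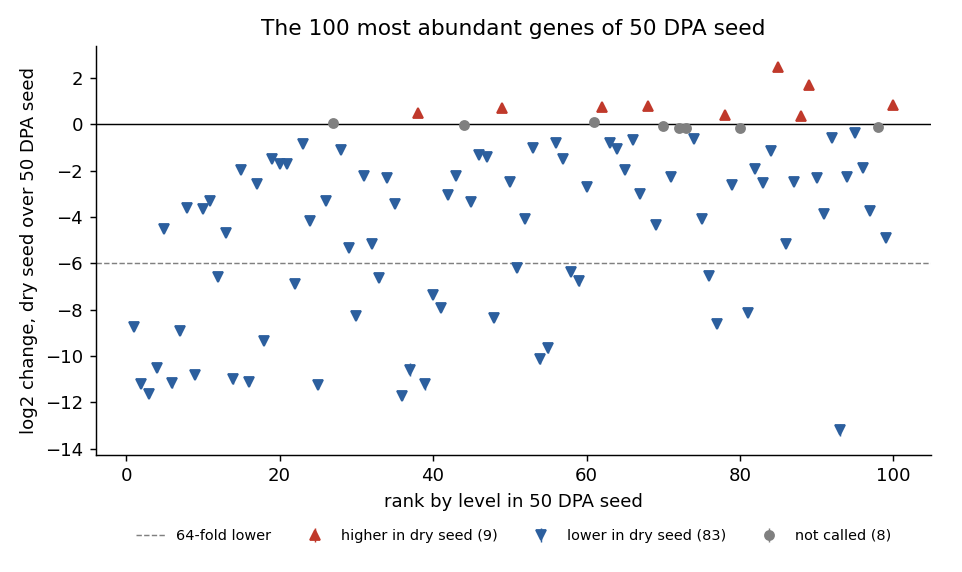
Log2 change of dry seed over 50 DPA seed (vertical axis, bars are SE and often smaller than the symbol) for the 100 most abundant genes of 50 DPA seed by rank (horizontal axis); triangles mark genes called higher (9) or lower (83) and grey points genes not called (8). Falls below the dashed line of 64-fold occur at ranks 1 to 93, and the 9 rises from rank 38 on.

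Among the 1000 most abundant genes of 50 DPA seed, the course went with the level in tissues that the choice did not use. Of these genes, 124 were at least 2-fold higher in dry seed, 352 stayed within 2-fold, 159 fell 2- to 4-fold, 165 fell 4- to 16-fold, 76 fell 16- to 64-fold and 124 fell at least 64-fold, 19 of the last to 0 counts. The median level in germinating seed was 85.2, 33.7, 9.46, 6.07, 5.07 and 0.528 CPM in the same order. In young leaf it was 34.2, 27.4, 12.1, 10.4, 8.94 and 0.165 CPM. The median 50 DPA level differed little between these courses, with 182 CPM for those at least 2-fold higher and 237 CPM for those that fell 16- to 64-fold as the lowest and highest. Their shares of 50 DPA counts differed widely. The 124 genes that fell at least 64-fold took 25.1%, and the 124 at least 2-fold higher took 2.54%, so starting levels were not matched. No test was made of this order, since the genes of a list are not replicates. Within bulk seed, fewer cells of a type and less RNA per cell cannot be told apart.

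The transcripts that came to dominate dry seed had mostly been present at 50 DPA. The 10 most abundant genes of dry seed took 6.90% ± 0.427 of its counts and 0.999% ± 0.000838 of those of 50 DPA seed (SD, n = 2), and 9 were called higher in dry seed (background 25.9% higher). Their ranks in 50 DPA seed ran from 27 to 7518, with a median of 240.5. Of the 100 genes most abundant in dry seed, 7 were at least 64-fold higher than at 50 DPA, 6 were 16- to 64-fold higher, 29 were 4- to 16-fold higher, 15 were 2- to 4-fold higher, 27 were within 2-fold and 16 were at least 2-fold lower. Those 16 genes took 2.51% of counts in dry seed and 11.7% in 50 DPA seed, and stayed among the 100 leading genes after a fall. None of the 100 was without counts in both 50 DPA libraries. The lists of 100 shared 39 genes, and the lists of 1000 shared 448, or 44.8% of each. The lists of leading dry seed genes were picked on the dry seed libraries, so their rise describes them and does not test a direction.

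The gene ZS11A04G028590 (A04 prefix) stood first in dry seed with the largest gain in CPM. It had 12423 and 14053 CPM in dry seed, against 23.8 and 24.4 CPM in 50 DPA seed. The log2 change was 9.10 ± 0.13 (SE, edgeR adjusted p = 2.43e-12), and its rank at 50 DPA was 7518, the lowest level among the 10 leading genes of dry seed. ZS11C04G069800 (C04 prefix), second in dry seed, had 9226 and 10551 CPM there and 320.5 and 327.2 CPM in 50 DPA seed, a log2 change of 4.93 ± 0.11 (SE, edgeR adjusted p = 7.80e-11). The libraries of the tissues did not overlap for either gene, as the choice of named genes required. The same held for 35007 of the 35210 called genes, a number that the calling itself makes high. The share over all genes tested was not counted, so this number adds nothing to the calls. In 48 h germinating seed ZS11A04G028590 and ZS11C04G069800 had means of 7.82 and 13.9 CPM.

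Genes lost outnumbered genes gained. A gene was counted as gained when it reached 1 CPM in both dry seed libraries and stayed under 0.2 CPM in both 50 DPA libraries, and as lost in the reverse case. By this rule 594 genes were gained and 2622 were lost, 4.41 times as many. They made up 1.84% of the 32285 genes detected in dry seed and 7.08% of the 37047 detected in 50 DPA seed, while 29203 genes were detected in both tissues. The limit of 0.2 CPM stood for 6.27 and 4.79 counts in dry seed and 4.69 and 5.04 counts in 50 DPA seed, so absence was judged at a similar depth in both. With total counts alone 654 were gained and 2132 lost. The counts depended on the limits: 1038 were gained and 3741 lost with detection at 0.5 CPM, and 328 were gained and 1730 lost with detection at 2 CPM. With absence taken as 0 counts, 276 were gained and 1751 lost. Every gene of both lists passed the filter and was called, as the rule nearly demands, so these calls add nothing.

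On the TMM scale, lost genes were also somewhat more abundant where they were detected. The TMM factors were 0.693 and 0.690 in 50 DPA seed and 0.885 and 0.866 in dry seed. The difference in level thus rests on the scale, and levels with total counts alone were not summarised. Gained genes had a median of 2.80 CPM in dry seed, with quartiles of 1.73 and 5.84 CPM and a highest level of 712.8 CPM. Lost genes had a median of 3.62 CPM in 50 DPA seed, with quartiles of 1.96 and 9.35 CPM and a highest level of 517.3 CPM. At least 10 CPM was reached by 94 gained genes, or 15.8%, and by 618 lost genes, or 23.6%. Together the gained genes took 0.561% and 0.588% of dry seed counts, and the lost genes 2.40% and 2.26% of 50 DPA seed counts. By starting level, 9.58% of genes between 1 and 10 CPM in 50 DPA seed were lost, 3.78% between 10 and 100 CPM, 4.91% between 100 and 1000 CPM and 0 of the 119 at 1000 CPM or more. The corresponding gained shares of dry seed genes were 2.95%, 0.620%, 0.602% and 0 of 100. No count at all was left in dry seed for 1751 of the lost genes, and none was present in 50 DPA seed for 276 of the gained ones.

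A larger share of the lost than of the gained genes was detected in other tissues, with no test made over genes. In germinating seed, 159 gained genes, or 26.8%, and 976 lost genes, or 37.2%, reached 1 CPM in both libraries. In young leaf these were 142, or 23.9%, and 1275, or 48.6%. Among genes detected in both dry and 50 DPA seed, 92.2% reached that level in germinating seed and 91.5% in young leaf. Over all genes tested the shares were 66.9% in germinating seed and 71.2% in young leaf. Detected in neither germinating seed nor leaf were 376 gained genes, or 63.3%, and 1144 lost genes, or 43.6%. The lost genes took 6.20% ± 0.00476 of leaf counts, more than the 2.33% ± 0.0939 they took in 50 DPA seed, and 1.65% ± 0.0402 of counts after germination (SD, n = 2). The gained genes took 0.207% ± 0.00138 of leaf counts and 0.158% ± 0.00208 after germination.

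The A and C subgenomes were set side by side by the prefix of the gene ID. Of 27589 genes tested with an A prefix, 26.6% were higher in dry seed and 34.1% lower, and of 31359 with a C prefix, 25.3% were higher and 33.4% lower. The difference of A minus C in the higher genes was 1.34 percentage points and was not tested. The share of higher genes ran from 24.3% on A02 to 28.6% on A06 among the A prefixes and from 22.9% on C02 to 27.6% on C05 among the C prefixes. For lower genes the range was 32.8% to 35.5% over A prefixes and 32.4% to 34.8% over C prefixes. Among gained genes 274 had an A prefix, or 0.993% of A genes tested, and 319 a C prefix, or 1.02% of C genes tested. Among lost genes these were 1309, or 4.74%, and 1310, or 4.18%, with chromosome ranges of 3.94% to 5.62% and 3.74% to 4.92%. Chromosomes are not replicates of a tissue, so no p is given for these differences.

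Of all counts on A and C prefixes, A held 50.6% and 50.8% in dry seed, against 49.1% and 49.0% in 50 DPA seed. The difference of 1.62 percentage points was larger than the spread between libraries, although the exact 2-sided permutation p of 0.33 is the smallest that 2 against 2 libraries allow. It rested on the dominant genes. Without the 100 most abundant genes of 50 DPA seed the A share was 50.6% ± 0.0996 in dry seed and 50.01% ± 0.0331 in 50 DPA seed. Without the 100 most abundant genes of dry seed it turned, at 50.02% ± 0.0264 in dry seed and 51.6% ± 0.0218 in 50 DPA seed. Without both lists it was 49.9% ± 0.0352 in dry seed and 49.8% ± 0.0338 in 50 DPA seed, a difference of 0.03 percentage points (SD, n = 2; exact permutation p = 0.667).

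Single chromosomes moved far more than the subgenomes. Genes with a C01 prefix took 6.38% and 6.35% of counts in dry seed, against 13.1% and 12.9% in 50 DPA seed. Genes with an A01 prefix took 5.63% and 5.62% in dry seed, against 9.996% and 9.87% in 50 DPA seed. C01 held 4 and A01 held 2 of the 10 genes most abundant in 50 DPA seed, and C01 and A01 held 10 and 13 of the 100. Those 10 genes on C01 took 1.36% of counts in dry seed and 10.2% in 50 DPA seed, and those 13 on A01 took 1.11% in dry seed and 7.41% in 50 DPA seed. In the other direction, A05 took 5.87% and 6.02% in dry seed, against 3.08% and 3.07% in 50 DPA seed, and C04 took 6.35% and 6.60% in dry seed, against 4.41% and 4.45% in 50 DPA seed. Over the 19 chromosome prefixes the difference of dry minus 50 DPA seed ran from -6.64 to 2.87 percentage points. With the 161 dominant genes left out of counts and totals, it ran from -0.33 to 0.58 percentage points.

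**Figure D5:**
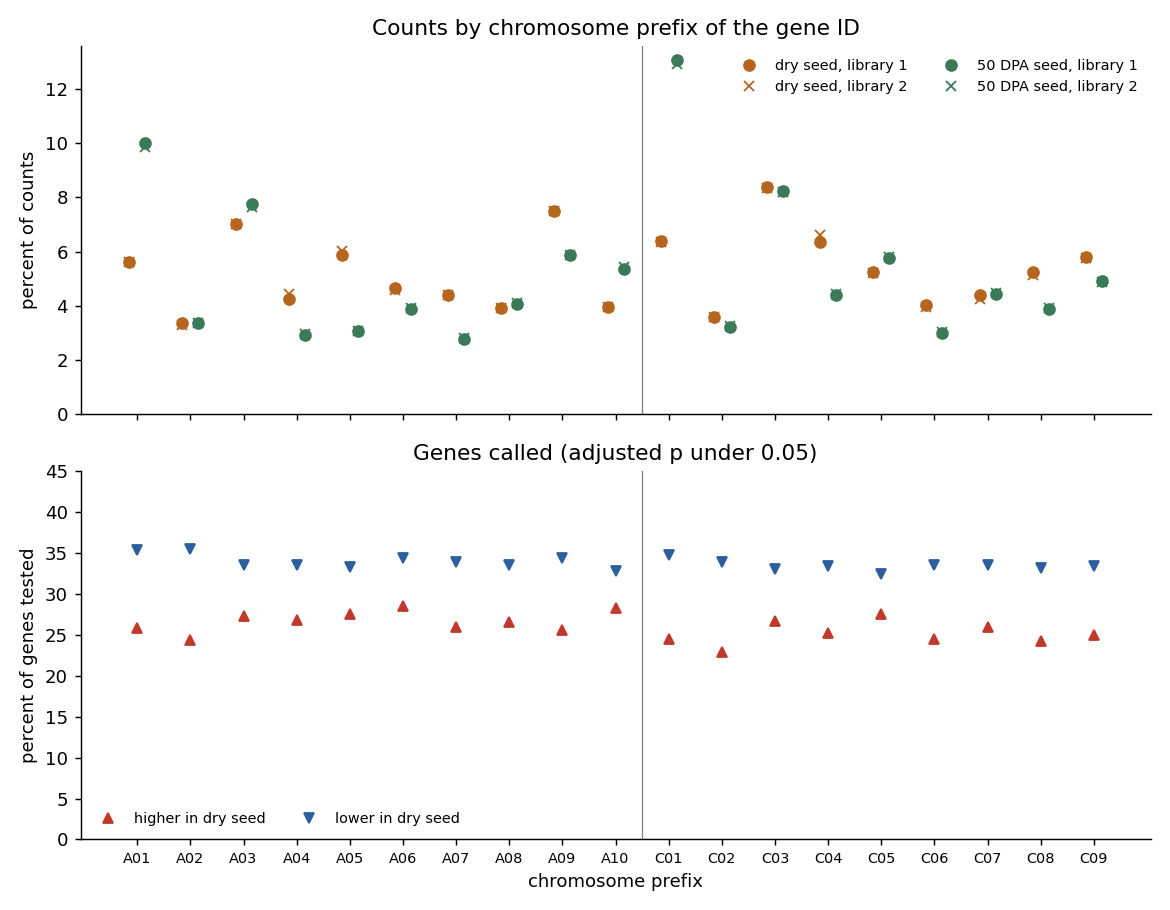
Top, percent of counts on A and C prefixes (vertical axis) by chromosome prefix (horizontal axis), with dry seed left of 50 DPA seed and one symbol per library. Bottom, percent of tested genes called higher or lower in dry seed. C01 and A01 have the highest counts of 50 DPA seed, at up to 13.1% and 9.996%, while their shares of genes called lower, 34.8% and 35.3%, lie within the range over all prefixes of 32.4% to 35.5%.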

How the data were processed

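The authors deposited whole-number counts per gene ID for 8 libraries of 4 tissues, 2 per tissue. HISAT2, SAMtools, FastQC and edgeR are named in the submitters' processing notes. The read counter, build, annotation and tool versions remain not given in the sources used here. How reads shared by near-identical copies were counted is likewise unknown, which makes single IDs uncertain. The 1 line whose ID does not start with ZS11 was removed. The other deposited tables were not used.

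Counts of all 8 libraries were filtered by filterByExpr (59062 of 106059 genes kept), scaled with TMM factors and fitted with edgeR's quasi-likelihood test and robust spread estimates (edgeR 4.0.16, R 4.3.3), 1 mean per tissue, 2-sided, p-values being adjusted by Benjamini-Hochberg over every gene tested, threshold 0.05. Standard errors are the log2 change over the square root of F. The test was tried on simulated counts for dry against 50 DPA seed (56259 genes in the fit): of 100 genes given a 2-fold change it called 57, of 100 given a 4-fold change 83, and it called 10 unchanged genes. Apart from the changed genes, all simulated tissues shared a single mean profile. The shift of counts among dominant genes seen here was therefore not tried, and error rates for this contrast are not given by it. Detection used TMM-scaled CPM. Alternatives were other scales (DESeq2 1.42.0 size factors among them), filters, tests, limits and libraries left out. Deviations of same-numbered libraries from their tissue means correlated at -0.0042, so levels gave no sign of pairing. Whether same-numbered libraries share a plant or harvest is not given. Named genes are the 2 per direction with the largest difference in CPM among called genes with no overlap between libraries, since IDs have no names. The comparison, lists and classes were chosen with earlier results of these data known, and totals without the dominant genes and floors for absent genes after the values were seen.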

Additional observations from a re-analysis of the deposited data

How the results depend on the processing

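Counts of changed, higher and lower genes stayed within 1.5 times under every alternative except the 2-fold minimum, which gave 21080 changed, 7998 higher and 13082 lower genes. Changed genes numbered 35579 with total counts alone, 35331 without the dominant genes, 33999 by DESeq2 and 29568 with only the 4 libraries, where fewer genes were tested. The fit with a replicate block gave 33394 changed, 14455 higher and 18939 lower genes, with the 4 named genes still called. Leaving out 1 library gave 31775 to 36092 changed, 12729 to 15641 higher and 18936 to 20515 lower genes.

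The median log2 change between 100 and 1000 CPM in 50 DPA seed, -0.89, was -0.75 with total counts, -0.90 with DESeq2 size factors, -0.95 and -0.85 with class and change from separate libraries, -0.87 on log2(CPM + 2), -0.84 without the dominant genes, and -0.98 and -0.92 without a dry seed library. It turned to 0.66 with classes by the mean of both tissues, and the cause was not tested. Classes were set anew on each scale, so their members differed. This class held 1182 genes in the main fit, 710 with total counts, 1198 with DESeq2 size factors and 1708 without the dominant genes.

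Gained genes numbered 1038 at 0.5 CPM, 328 at 2 CPM and 276 with 0 counts as the limit, and lost genes 1730 at 2 CPM. Without 1 library they numbered 785 to 834 and 2998 to 3455. Lost genes were 3.26 to 6.34 times the gained ones in all settings run. The difference of A over C in higher genes was 2.43 points without a filter, 0.85 with the 2-fold minimum, 1.11 without the dominant genes, and 1.19 to 1.52 without a dry seed library. The share of the 100 genes ran from 9.31% to 9.64% and the A share in dry seed from 50.6% to 50.8% without 1 library. The 4 named genes kept their call in all 12 values from total counts, the replicate block and the 4-library fit. Depth limits the genes under 1 CPM in 50 DPA seed, where the median standard error of a log2 change was 1.07.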
